A study of Mus musculus with 17 samples.

Results

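Fatty acids are built in the cytosol from citrate that leaves the mitochondrion. ATP-citrate lyase (Acly) splits citrate to acetyl-CoA, acetyl-CoA carboxylase (Acaca) makes malonyl-CoA from it, and fatty acid synthase (Fasn) joins these units to palmitate with NADPH, part of which comes from malic enzyme (Me1). Elongases then add carbons and desaturases add double bonds, and in β cells the same intermediates are known as signals that couple glucose metabolism to insulin secretion. The genes described here are Acly, Me1, Acaca, Fasn, the elongases Elovl6 and Elovl5, the Δ9 desaturases Scd1 and Scd2, and the Δ5 and Δ6 desaturases Fads1 and Fads2. They were taken by symbol, by a rule that uses no measured value, though with earlier results of these data known, and are 10 of the 55357 genes listed. All 10 passed the filter on low counts and were among the 22784 genes tested.

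The data are RNA-sequencing of tdTomato+ β cells sorted by FACS from cultured islets of male C57BL/6 mice. Every mouse carried the RIP-Cre transgene, whose rat insulin promoter drives Cre in β cells, and the Cre-inducible Rosa26 tdTomato reporter. Control mice (genotype WT in the labels) had no floxed Pcbp2, and Pcbp2βKO mice were RIPCre+;Pcbp2Fl/Fl;Tdtomato. Per the paper, islets for sequencing first recovered in medium with a glucose concentration between those compared here. They were then held for 3 days in low (2.8 mM) or high (16.7 mM) glucose before sorting. This gave 3 control samples at 2.8 mM, 4 control samples at 16.7 mM, and 5 Pcbp2βKO samples at each concentration. No sample stands for the recovery medium, so a rise at 16.7 mM and a fall at 2.8 mM cannot be told apart. Below, rose and fell mean higher or lower at 16.7 mM than at 2.8 mM. The age of these mice, and whether a sample pools several of them, are not given in the sources used here. Nothing in them says that the replicates are separate animals, so p-values measure only the spread between these samples.

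Libraries held 47385513 to 82419400 estimated counts. Levels in counts per 1000000 use library sizes scaled by TMM factors of 0.752 to 1.29, so they are not shares of a library. Pcbp2, which codes for the RNA-binding protein removed in the knockout, was at 62.5 ± 11.4 and 40.4 ± 5.27 counts per 1000000 (CPM; mean ± SD, n = 3 and n = 4) in control cells at 2.8 and 16.7 mM glucose. It was at 17.4 ± 1.39 and 7.66 ± 1.68 CPM in Pcbp2βKO cells (n = 5 each), and no library contradicted its label. The sorted cells carried β cell transcripts at 67100 to 528200 CPM over 10 markers, and the summed CPM of 5 markers of adipocytes, cells known for fatty acid synthesis, was 0.10 to 0.48. On the first principal component, which held 30% of the variance, 3 libraries at 16.7 mM glucose (control replicate 4, Pcbp2βKO replicates 4 and 5) lay at 9.9 to 33.2. The other 6 libraries at that concentration lay at 90.9 to 99.1. Counts below are also given without these 3 libraries.

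The windows around the start sites of Scd1 and Fads2 are shown because these genes had the largest fitted folds between the glucose concentrations among the 10. Each runs from 250 bases before the annotated start to 50 bases after it, on GRCm39, in the 5′ to 3′ direction of the gene. Capitals mark a match to CCAAT, the motif bound by NF-Y, on either strand. The Scd1 window is chr19:44396291-44396590 (minus strand) and the Fads2 window is chr19:10079154-10079453 (minus strand).
Scd1: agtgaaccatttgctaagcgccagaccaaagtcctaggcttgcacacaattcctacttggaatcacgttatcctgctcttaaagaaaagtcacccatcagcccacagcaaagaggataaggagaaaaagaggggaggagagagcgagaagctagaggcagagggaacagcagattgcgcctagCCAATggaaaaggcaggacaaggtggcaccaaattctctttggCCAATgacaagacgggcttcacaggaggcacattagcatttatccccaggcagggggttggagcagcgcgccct
Fads2: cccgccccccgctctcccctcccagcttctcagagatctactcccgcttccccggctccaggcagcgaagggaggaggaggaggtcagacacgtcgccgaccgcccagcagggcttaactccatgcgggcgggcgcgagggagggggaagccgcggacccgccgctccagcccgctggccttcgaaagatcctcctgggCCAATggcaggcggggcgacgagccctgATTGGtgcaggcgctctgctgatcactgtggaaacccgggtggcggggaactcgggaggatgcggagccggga

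In these letters the Scd1 window held 2 CCAAT matches and the Fads2 window 2. Neither held a match to TCACNCCAC, a form of the sterol regulatory element bound by SREBP factors, or to the E-box CACGTG. The motifs were searched on both strands in the windows of 21757 protein-coding genes. TCACNCCAC lay in 1.34% of all windows, that of Acaca among them, and CACGTG lay in 7.82%, those of Acaca and Elovl5 among them. CCAAT lay in 39.9% of all windows, that of Acly among them, and the GC box GGGCGG lay in 42.5%, those of Acly, Fads2 and Me1 among them. Matches to different motifs did not overlap one another in the printed windows. The windows of Scd2, Elovl6 and Fads1 held no match to these letters, which says nothing of other forms of the motifs or of sequence outside the window. The most abundant Acaca transcript begins 22316 bases from the annotated start used here, so for Acaca the window is not the start of its main transcript.

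Compared per transcript length, in transcripts per 1000000 (TPM), Acly stood far above the other 9 genes. Its mean was 386.5 ± 132.6 TPM (n = 3) in control cells at 2.8 mM glucose and 417.4 ± 41.95 TPM (n = 4) at 16.7 mM. In Pcbp2βKO cells it was 351.3 ± 65.16 and 426.6 ± 67.32 TPM (n = 5 each). Acly alone made up 65.5% to 84.1% of the summed TPM of the 10 genes over all 17 samples. Elovl5 followed with 67.3 ± 11.95 TPM in control cells at 2.8 mM and 39.95 ± 12.74 TPM at 16.7 mM. Scd1 was the lowest of the 10 in each group, with means between 0.0124 and 0.218 TPM.

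The order of the genes between these ends differed with glucose. In control cells at 2.8 mM it was Acly, Elovl5, Fads1, Scd2, Me1, Fasn, Elovl6, Acaca, Fads2 and Scd1, and only the neighbours Scd2 and Me1, and Fasn and Elovl6, had overlapping ranges. In control cells at 16.7 mM Scd2 (19.45 ± 2.371 TPM) stood above Fads1 (12.76 ± 3.385 TPM) and their ranges did not overlap. Fads2 then reached 2.36 ± 0.849 TPM, beside Acaca at 2.11 ± 0.572 TPM, and the ranges of this pair overlapped. In Pcbp2βKO cells Scd2 stood next after Elovl5 at both concentrations, at 21.9 ± 5.62 and 28.1 ± 7.88 TPM. Its range overlapped that of Fads1 at 2.8 mM and that of Elovl5 at 16.7 mM.

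**Figure D1:**
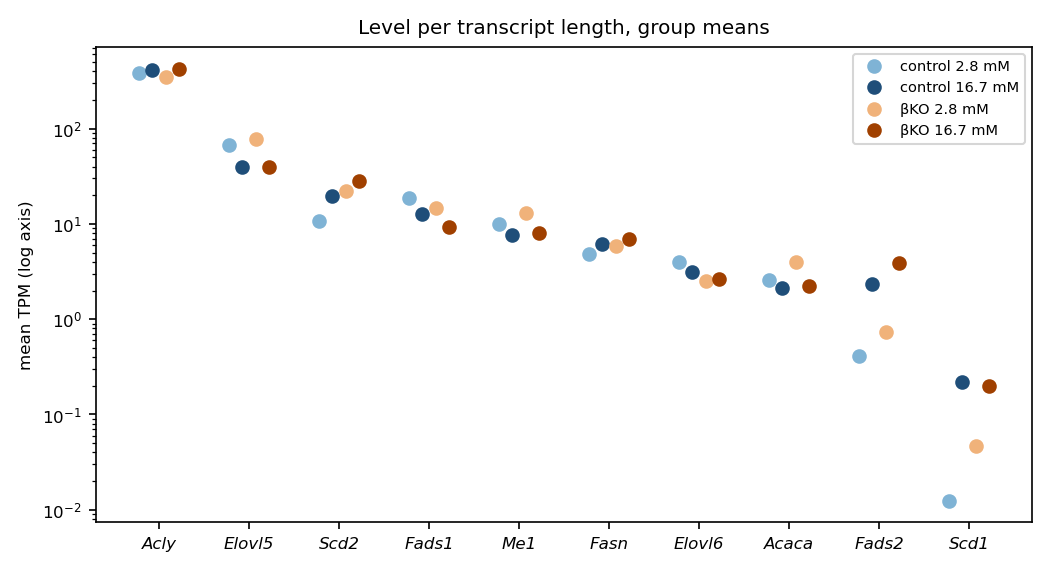
Mean TPM of each gene in the 4 groups, on a log axis, with the genes ordered from high to low and each point 1 group mean (3 to 5 samples). Acly lies at 351 to 427 TPM in all groups, and Scd1 and Fads2 are the lowest genes of the control cells at 2.8 mM glucose.

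The first comparison asked which of these genes differed between 16.7 and 2.8 mM glucose after 3 days in control cells. Of the 10, Acly, Fasn and the desaturases Scd1, Scd2 and Fads2 rose past the threshold (adjusted p under 0.05 in edgeR's quasi-likelihood test and a fold over 1.5), so 5 genes rose and 0 fell. Over all genes tested 13.8% were called, 7.15% as higher and 6.69% as lower, and the median log2 fold change of the 10 genes was 0.72 beside 0.04 over all genes. With the replicate number as a block, the same count of 5 stood beside 4775 of the 22784 genes called, in place of 3153. In bulk samples, fewer cells with a transcript and less of it per cell cannot be told apart.

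Acly, the first enzyme of the route, was at 1956, 1029 and 1972 CPM in the 3 control samples at 2.8 mM glucose. At 16.7 mM it was at 3460, 3273, 3267 and 2792 CPM. The groups did not overlap, replicate 2 was the low sample at 2.8 mM, and the fold was 1.94 (log2 0.95 ± 0.20 SE, adjusted p = 0.00443). Me1, which makes NADPH while turning malate to pyruvate, was at 32.2 ± 6.42 and 42.1 ± 8.33 CPM and did not pass the test (log2 0.39 ± 0.24, adjusted p = 0.313).

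Acaca, which makes the malonyl-CoA used by Fasn and by the elongases, ranged over 14.06 to 19.75 CPM and 17.14 to 24.05 CPM. These ranges overlapped and the difference missed the threshold (log2 0.40 ± 0.15, adjusted p = 0.0800). Fasn was at 47.84, 36.13 and 46.49 CPM at 2.8 mM and at 153, 98.44, 83.46 and 71.35 CPM at 16.7 mM. Every sample at 16.7 mM lay above every sample at 2.8 mM, with a fold of 2.34 (log2 1.22 ± 0.26, adjusted p = 0.00537).

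Among the elongases, Elovl6, which extends palmitate to stearate, was at 11.8 ± 2.44 CPM at 2.8 mM and 16.5 ± 1.43 CPM at 16.7 mM. Its groups did not overlap, and its log2 difference of 0.48 ± 0.16 passed the test (adjusted p = 0.0416) but not the fold threshold. Without control replicate 2 at 2.8 mM, its highest sample of that group, the difference was 0.64 (adjusted p = 0.0352) and past both. The test was also passed without replicate 1 at 16.7 mM (adjusted p = 0.0371). It was not passed without replicate 1 or 3 at 2.8 mM (adjusted p = 0.126 and 0.186). Nor was it passed without replicate 2, 3 or 4 at 16.7 mM (adjusted p = 0.0821, 0.095 and 0.0519). Without the 3 libraries that stood apart, Elovl6 did not pass either (adjusted p = 0.0725). Elovl5, which elongates polyunsaturated fatty acids, was at 180.6 ± 22.6 and 180.5 ± 29.7 CPM. The approximate 95% interval of its log2 difference ran from -0.30 to 0.30. It was taken from the standard error and a normal distribution, so it may be too narrow for so few samples.

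The Δ9 desaturases, which place the first double bond in stearate and palmitate, differed in level by orders of magnitude but moved in the same direction. Scd2 was at 75.71, 48.86 and 66.62 CPM at 2.8 mM and at 284.8, 200.9, 166.4 and 155.0 CPM at 16.7 mM. The groups were apart and the fold was 3.17 (log2 1.66 ± 0.32, adjusted p = 0.00271). Scd1 had only 6, 9 and 1 estimated counts in the control samples at 2.8 mM, against 160, 160, 38 and 97 at 16.7 mM. Its fitted fold of 31.0 (log2 4.96 ± 1.13, adjusted p = 0.00726) therefore rests on very few reads at the low concentration. Scd1, Scd2 and Scd3 are related copies of a gene, and how reads were divided among them in the authors' counting was not tested.

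Fads2, the Δ6 desaturase that opens the route to long polyunsaturated fatty acids, was at 1.285, 1.238 and 0.9737 CPM at 2.8 mM. At 16.7 mM it was at 24.27, 13.2, 7.509 and 9.283 CPM. No sample at 16.7 mM came near those at 2.8 mM, and the fold was 11.6 (log2 3.54 ± 0.57, adjusted p = 0.000955). Fads1, the Δ5 desaturase that acts after it, was at 62.3 ± 8.44 and 73.4 ± 10.1 CPM and did not pass the test (log2 0.24 ± 0.15, adjusted p = 0.305). Groups without overlap were found for 6 members, all higher at 16.7 mM, against 11.8% of all genes higher and 12.3% lower.

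**Figure D2:**
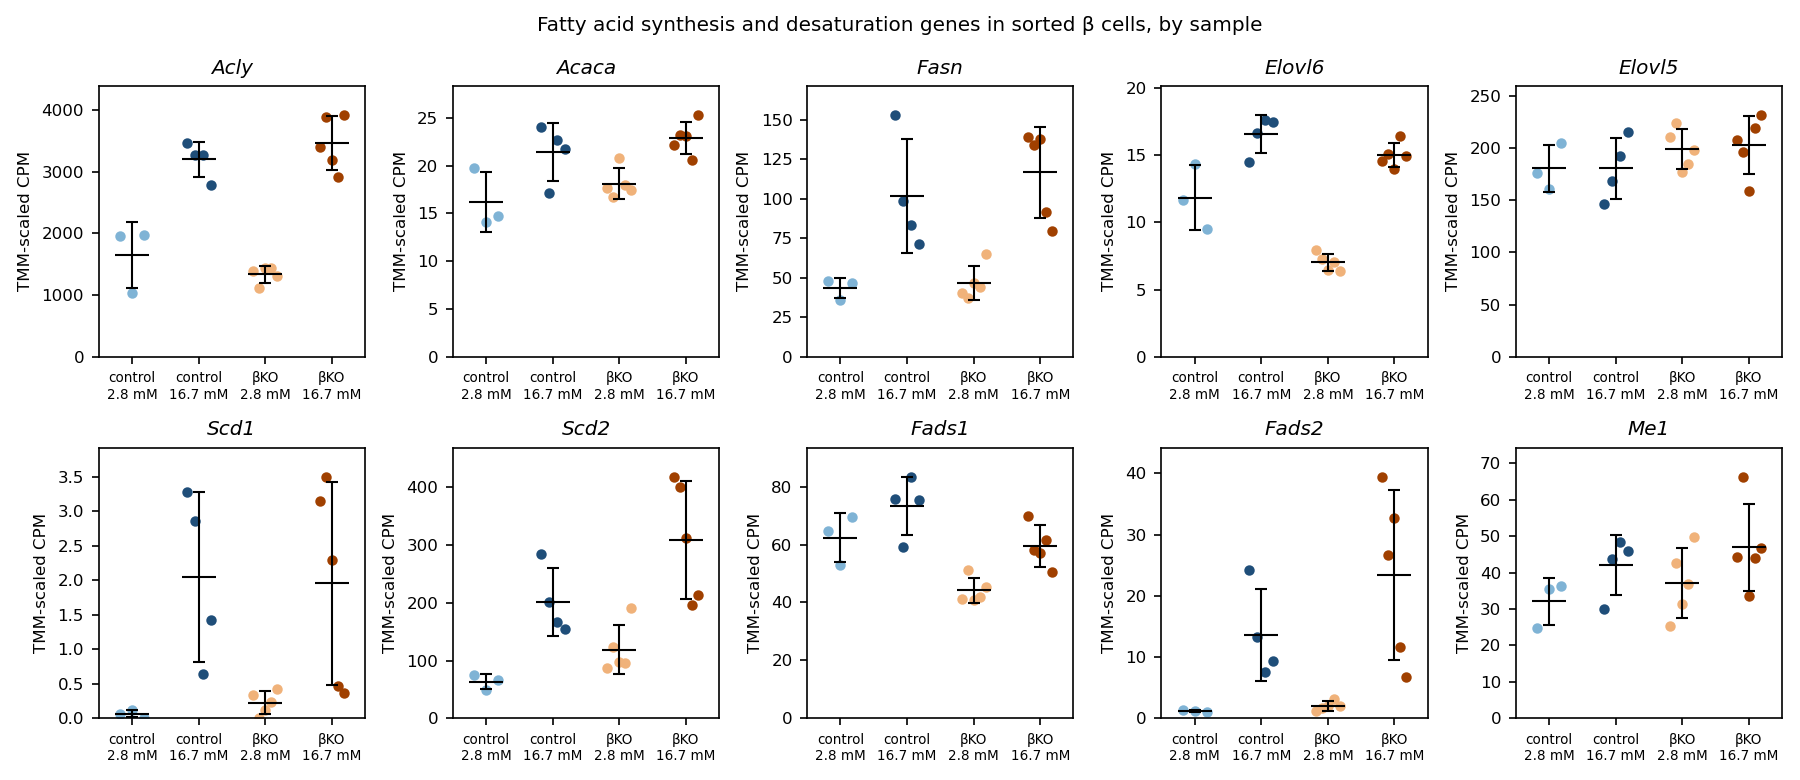
TMM-scaled CPM of the 10 genes in each of the 17 samples, 1 panel a gene, with points for samples and bars for the mean ± SD of each group. Acly, Fasn, Scd2 and Fads2 lie higher at 16.7 mM than at 2.8 mM glucose in every sample of each genotype, while Elovl5 stays between 146.6 and 231.7 CPM in all groups.

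The same question in Pcbp2βKO cells gave 6 of 10 genes higher and 0 lower, where 23.8% of all genes were called, 13.4% as higher and 10.4% as lower. The 6 were Acly, Fasn, Scd1, Scd2, Fads2 and Elovl6, and the median log2 fold change was 1.21 beside 0.01 over all genes. Acly was at 1386, 1112, 1437, 1442 and 1304 CPM at 2.8 mM and at 3400, 3882, 3194, 2910 and 3918 CPM at 16.7 mM. All samples at 16.7 mM were above all at 2.8 mM (fold 2.59, log2 1.37 ± 0.16, adjusted p = 1.46e-05).

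Elovl6 was at 7.93, 7.262, 6.488, 7.059 and 6.402 CPM in Pcbp2βKO cells at 2.8 mM. At 16.7 mM it was at 14.58, 15.11, 13.96, 16.41 and 14.89 CPM. The groups were narrow and well apart, with a fold of 2.13 (log2 1.09 ± 0.13, adjusted p = 1.40e-05). Fasn ranged over 37.53 to 65.24 CPM and 79.63 to 139.4 CPM (log2 1.32 ± 0.21, adjusted p = 0.000197), and again the groups did not overlap.

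Scd2 was at 86.54, 123.0, 97.56, 96.28 and 190.9 CPM at 2.8 mM and at 418.6, 400.0, 313.0, 197.0 and 213.9 CPM at 16.7 mM. Replicate 5 at 2.8 mM lay just below the lowest sample at 16.7 mM (log2 1.38 ± 0.26, adjusted p = 0.00058). Fads2 ranged over 1.195 to 3.226 CPM and 6.707 to 39.49 CPM (log2 3.54 ± 0.45, adjusted p = 2.39e-05). Scd1 was called (log2 3.10 ± 0.79, adjusted p = 0.00605), but its ranges overlapped, with 0.3597 and 0.4689 CPM in replicates 5 and 4 at 16.7 mM beside up to 0.4195 CPM at 2.8 mM.

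Of the other 4 genes, Fads1 passed the test under the fold threshold (log2 0.43 ± 0.12, adjusted p = 0.0112). Acaca (log2 0.34 ± 0.12, adjusted p = 0.05 after rounding), Me1 (log2 0.34 ± 0.20, adjusted p = 0.225) and Elovl5 (log2 0.03 ± 0.13, adjusted p = 0.900) did not pass. Groups without overlap were found for 5 members, all higher at 16.7 mM, against 10.9% of all genes higher and 10.8% lower.

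**Figure D3:**
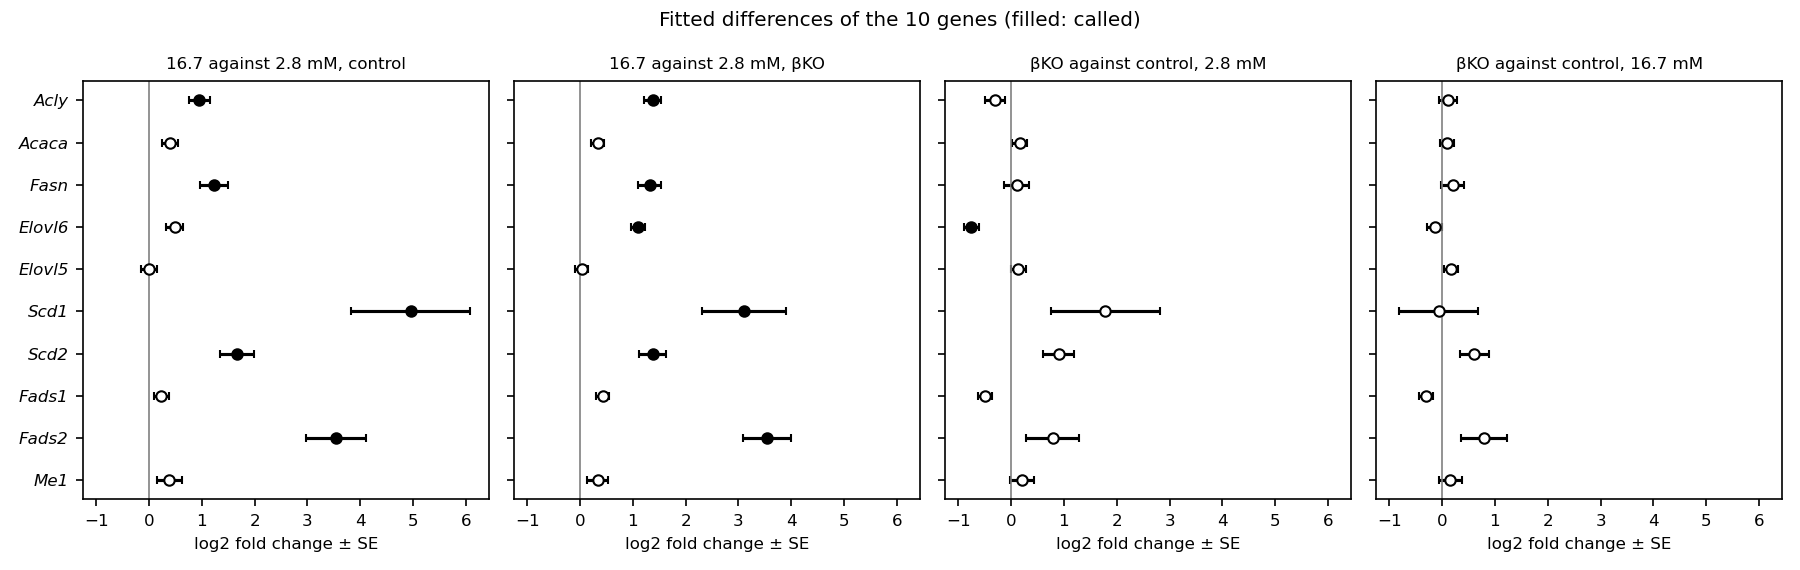
Fitted log2 fold changes of the 10 genes with their standard errors in 4 comparisons, filled where adjusted p was under 0.05 and the fold over 1.5. 5 genes are filled for glucose in control cells, 6 for glucose in Pcbp2βKO cells, Elovl6 alone for the knockout at 2.8 mM, and none for the knockout at 16.7 mM.

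These glucose values are relative to the bulk of genes, and the scale bears on them. Insulin transcripts took more of each library at high glucose: Ins2 alone held 8.90% to 9.03% of counts in control cells at 2.8 mM and 18.2% to 25.7% at 16.7 mM. In Pcbp2βKO cells it held 4.92% to 10.4% and 20.7% to 24.7%. With total counts and no scaling factors, the median of all genes fell by 0.35 on the log2 scale in control cells and by 0.47 in Pcbp2βKO cells between the concentrations. On log2(TPM + 0.1) it fell by 0.56 and 0.71.

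On total counts 4 members were called higher in control cells and 0 lower, without Acly (log2 0.55, adjusted p = 0.0562), and 6 higher in Pcbp2βKO cells. On log2(TPM + 0.1), tested with limma, 3 were called higher in control cells (Scd1, Scd2 and Fads2) and 1 lower (Elovl5). In Pcbp2βKO cells 2 were then higher (Scd1 and Fads2) and 4 lower (Acaca, Fads1, Elovl5 and Me1). Fads2 and Scd1 were thus called higher on all 3 scales in both genotypes, and Scd2 in control cells. On log2(TPM + 1) Scd1 was not called in either genotype.

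Relative to the median of all genes on that same log2(TPM + 0.1) scale, Fads2 was 2.76 higher in control cells and 2.82 higher in Pcbp2βKO cells. Scd2 was 1.41 and 1.06 higher, and Acly 0.73 and 1.00 higher. Fasn was 0.92 and 0.95 higher on the same scale, and Scd1 1.99 and 1.60. Elovl5 was below that median in both genotypes, at -0.23 and -0.27. Elovl6 stood at 0.15 in control cells and 0.79 in Pcbp2βKO cells.

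**Figure D4:**
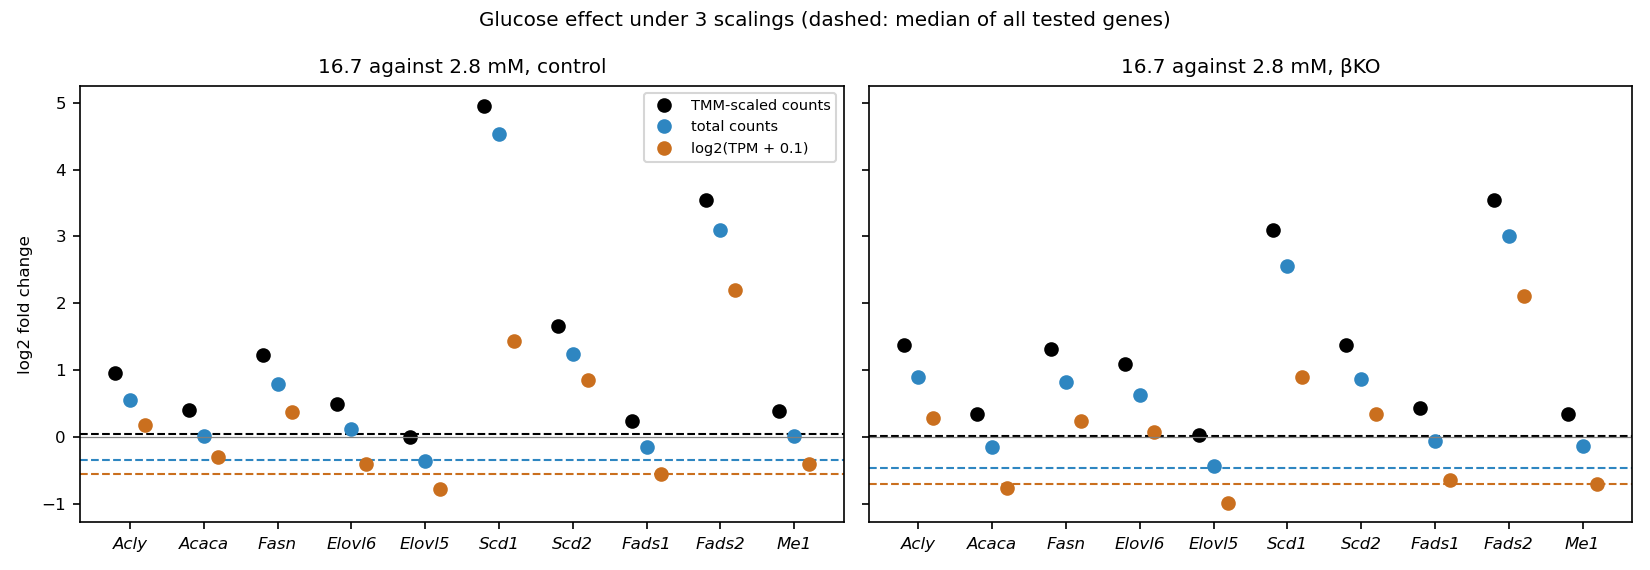
Log2 fold change between 16.7 and 2.8 mM glucose for the 10 genes on TMM-scaled counts, on total counts and on log2(TPM + 0.1), in control cells (left) and Pcbp2βKO cells (right), with dashed lines at the median of all tested genes on each scale. Fads2, Scd1, Scd2, Acly and Fasn lie above the dashed line of their own scale in both panels, and Elovl5 lies below or close to it.

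The 3 libraries that stood apart were also set apart for some members. Fasn and Scd2 were below the rest of their group in them in both genotypes (Fasn at 71.35 CPM against 83.46 to 153, and at 79.63 to 91.89 CPM against 134.2 to 139.4). Scd1 and Fads2 were below the rest in the Pcbp2βKO libraries, and Acly in the control library. Elovl5 was above the rest in both genotypes. Without these 3 libraries the counts of called members stayed at 5 and 6 for glucose and at 1 and 0 for the knockout at 2.8 and 16.7 mM. The part of these libraries' difference in the members' spread was not tested.

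Markers of cell types also moved with glucose. In control cells 7 of 10 β cell markers were called higher at 16.7 mM, 1 of 5 α cell markers higher and 1 of 3 δ cell markers lower, and 0 of 2 PP cell and 0 of 3 macrophage markers. In Pcbp2βKO cells 9 of the 10 β cell markers were higher, while 2 of 5 α (1 other higher), 2 of 3 δ, 2 of 2 PP and 3 of 3 macrophage markers were lower. The summed α cell markers were at 1570 to 9438 CPM at 2.8 mM and 952.5 to 1812 CPM at 16.7 mM in these cells, and the PP cell markers at 1431 to 7425 and 470.3 to 1456 CPM. The summed macrophage markers were at 5.33 to 18.7 and 1.14 to 2.97 CPM, and δ cell markers at 480.4 to 1316 and 198.4 to 565.5 CPM. The part of these cells in the members' glucose differences was not tested.

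The knockout was compared with control cells at each glucose concentration. At 2.8 mM, 1 of the 10 genes, the elongase Elovl6, was called and it was lower, where 2.04% of all genes were called, 0.255% as higher and 1.78% as lower. Control samples were at 11.65, 14.35 and 9.485 CPM and Pcbp2βKO samples at 6.402 to 7.93 CPM. The groups did not overlap and Elovl6 was 1.68-fold lower in Pcbp2βKO cells (log2 -0.75 ± 0.15, adjusted p = 0.00707). Without control replicate 2, the difference was -0.59 (adjusted p = 0.0759) and no longer called, and on total counts it was -0.63 (adjusted p = 0.0901).

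A pair of desaturases differed without overlap but missed the threshold at 2.8 mM. Fads1 was at 64.58, 52.99 and 69.43 CPM in control cells and at 41.37, 51.38, 40.91, 42.06 and 45.34 CPM in Pcbp2βKO cells (log2 -0.50 ± 0.14, adjusted p = 0.0712). Scd2 was at 48.86 to 75.71 CPM in control cells and at 86.54 to 190.9 CPM in Pcbp2βKO cells (log2 0.90 ± 0.30, adjusted p = 0.159). On log2(TPM + 0.1) the Scd2 difference was 1.00 and passed (limma, adjusted p = 0.0407), while that of Elovl6 was -0.65 and did not (adjusted p = 0.221). Over all genes, 4.06% were higher and 6.88% lower without overlap, against 1 and 2 of the 10 members.

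Summed markers of other islet cells also differed between the genotypes at 2.8 mM, with overlapping ranges for α cells and separate ranges for δ and PP cells. The sum over 5 α cell markers was 690.9 to 2623 CPM in control and 1570 to 9438 CPM in Pcbp2βKO samples, and that over 3 δ cell markers 250.5 to 389.8 CPM and 480.4 to 1316 CPM. The sum over 2 PP cell markers was 1111 to 1208 and 1431 to 7425 CPM, and that over 10 β cell markers 118800 to 123300 and 67100 to 97100 CPM. None of the α, δ and PP markers passed the test at this concentration, and 2 of the β cell markers were lower. The part of these cells in the Elovl6, Fads1 and Scd2 differences was not tested.

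At 16.7 mM glucose 0 of the 10 genes were called for the knockout, where 1.71% of all genes were called, 0.29% as higher and 1.42% as lower. Scd2 (log2 0.61 ± 0.27, adjusted p = 0.357) and Fads1 (log2 -0.30 ± 0.13, adjusted p = 0.326) had an unadjusted p under 0.05, and DESeq2 called 0 as well. Elovl6, the gene called at 2.8 mM, was at 16.5 ± 1.43 CPM in control and 14.99 ± 0.903 CPM in Pcbp2βKO cells (log2 -0.14 ± 0.14, adjusted p = 0.772), and its ranges overlapped. Fads2 ranged widely, at 7.509 to 24.27 CPM and 6.707 to 39.49 CPM (log2 0.79 ± 0.44, adjusted p = 0.515). Ranges of the 2 genotypes overlapped for all 10 genes at this concentration, where 1.85% of all genes were higher and 2.64% lower without overlap.

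Whether glucose acted differently in the genotypes was tested as an interaction. None of the 10 genes was called, by edgeR or by DESeq2, and 0.00439% of all genes were (0.00439% as higher, 0.0% as lower). Elovl6 alone had an unadjusted p under 0.05: its response was larger by 0.61 ± 0.20 on the log2 scale in Pcbp2βKO cells (edgeR's quasi-likelihood test, adjusted p = 1.0). For Acly the difference of responses was 0.42 ± 0.25 and for Scd1 -1.85 ± 1.27, the widest error of the 10.

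Transcripts of Acly with and without a small internal exon differed in share between samples. Most Acly mRNA is of 2 transcripts, Acly-203 (4426 bases) and Acly-207 (4162 bases). A coding exon of 30 bases, exon 14 of the 29 exons of Acly-203, is part of the difference between them. This exon keeps the reading frame and adds 10 codons. It is shown with 100 bases of intron on each side, at chr11:100393886-100394115 (GRCm39, minus strand), with the exon in capitals.
Acly exon: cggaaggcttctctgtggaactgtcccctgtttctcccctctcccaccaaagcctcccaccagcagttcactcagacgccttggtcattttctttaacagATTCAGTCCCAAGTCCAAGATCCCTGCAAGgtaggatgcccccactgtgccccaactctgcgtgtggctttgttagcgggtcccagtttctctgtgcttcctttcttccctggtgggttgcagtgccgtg

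Acly-203 holds this exon, and Acly-207 and the much scarcer Acly-201 skip it. The share of Acly-203 in the TPM of these 3 long transcripts was examined after the values had been seen. It was 60.14%, 63.4% and 55.68% in control cells at 2.8 mM and 53.5%, 50.87%, 48.98% and 54.52% at 16.7 mM. In Pcbp2βKO cells it was 51.35%, 51.62%, 49.74%, 50.51% and 38.71% at 2.8 mM and 46.13%, 46.1%, 49.76%, 49.21% and 42.93% at 16.7 mM. Control samples at 2.8 mM held the highest shares, above every sample of the other groups. Acly-203 and Acly-207 also differ in length outside the exon, and which of these stretches the share follows was not tested. The shorter Acly-202, with 2.67% of the mean Acly TPM, holds the exon too and is not part of the share.

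The share in Pcbp2βKO cells differed from that in control cells by -11.4 percentage points at 2.8 mM (48.4 ± 5.46% and 59.7 ± 3.87%, exact two-sided permutation p = 0.0179, adjusted over the 4 comparisons 0.0571). At 16.7 mM the difference was -5.14 points, with overlapping ranges (46.8 ± 2.76% and 52.0 ± 2.52%, exact permutation p = 0.0476, adjusted 0.0635). Between the concentrations the share fell by 7.77 points in control cells (exact permutation p = 0.0286, adjusted 0.0571) and by 1.56 points in Pcbp2βKO cells (exact permutation p = 0.571). None of the 4 passed after adjustment, and 0.0179 and 0.0286 are the smallest values those group sizes allow. Without Pcbp2βKO replicate 5 at 2.8 mM, the low sample, the knockout difference there was -8.93 points and the glucose difference in Pcbp2βKO cells -3.98 points. Each then had an adjusted value of 0.0476 in the exact permutation test. No other single omission brought either value under 0.05. The adjusted values were then 0.0571 to 0.178 for the knockout at 2.8 mM. For glucose in Pcbp2βKO cells they were 0.460 to 0.897.

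Acly-201 was listed at up to 0.00603 TPM in control samples and at up to 39.3 TPM in Pcbp2βKO samples, where the highest values at both concentrations, 33.1 and 39.3 TPM, were in replicate 5. The split of reads between such similar transcripts is an estimate and is less certain than the total for the gene.

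**Figure D5:**
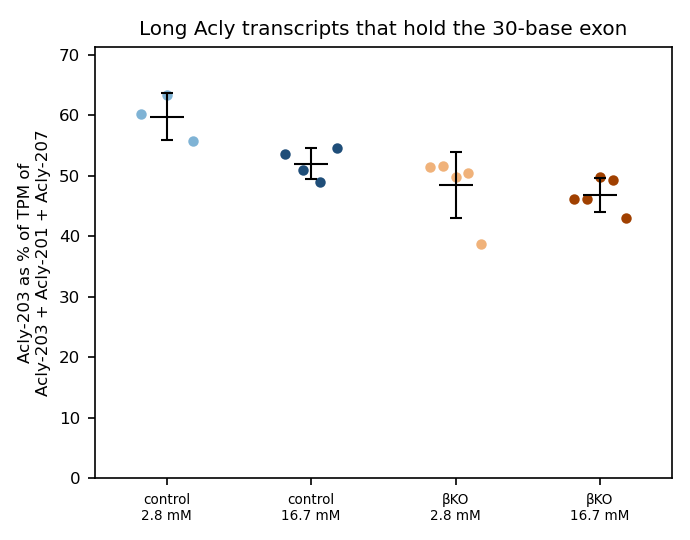
Share of Acly-203, which holds the 30-base exon, in the TPM of Acly-203, Acly-201 and Acly-207, with points for the 17 samples and bars for the mean ± SD of each group. The 3 control samples at 2.8 mM glucose lie at 55.7% to 63.4% and replicate 5 of the Pcbp2βKO samples at 2.8 mM lies lowest, at 38.7%.

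For the 5 genes with a divided isoform make-up (Acly, Acaca, Fasn, Elovl6 and Me1), the share of the main transcript in the gene's TPM was compared over 20 pairs of groups, and none passed after adjustment. The smallest exact permutation p were for Acly-203, 54.8 ± 2.44% in control and 43.9 ± 4.75% in Pcbp2βKO cells at 2.8 mM (p = 0.0179, adjusted 0.179) and 50.1 ± 2.28% and 44.8 ± 2.56% at 16.7 mM (p = 0.0159, adjusted 0.179). Elovl6-205 made up 68.1 ± 3.40% and 75.0 ± 2.51% of Elovl6 in control cells at 2.8 and 16.7 mM (exact permutation p = 0.0286, adjusted 0.190). Scd1 was 0.132% of the summed TPM of Scd1 and Scd2 in control cells at 2.8 mM and 1.08% at 16.7 mM (exact permutation p = 0.0571, adjusted over 4 comparisons 0.159). The corresponding shares in Pcbp2βKO cells were 0.226% and 0.624% (exact permutation p = 0.0794, adjusted 0.159).

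The rest of the pathway was followed in 6 lists of 75 genes, of which 73 were tested. In control cells 14 of the 73 were higher at 16.7 mM glucose and 5 lower, and in Pcbp2βKO cells 15 and 10. Over all genes tested 7.15% were higher and 6.69% lower in control cells, and 13.4% and 10.4% in Pcbp2βKO cells, so the lower calls of the lists in control cells were near the share over all genes. On total counts these became 5 higher and 14 lower, and 3 and 21, and on log2(TPM + 0.1) 1 and 41, and 2 and 49, so the directions below are relative to the bulk of genes. With the replicate number as a block, the counts in control cells were 14 and 11. The calls in Pcbp2βKO cells were 4 higher and 2 lower among the regulators, 5 and 1 among the suppliers of acetyl-CoA and NADPH, and 2 and 0 among the elongation genes. They were 1 and 1 among the desaturases and electron carriers, and 3 and 6 among the genes of activation and glycerolipid synthesis.

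Among 17 regulators of lipogenesis, 5 rose and 1 fell in control cells, and the list's median log2 difference was 0.03 beside 0.04 over all genes. Srebf1, the SREBP gene that drives fatty acid synthesis, rose from 48.5 to 91.4 CPM (log2 0.91 ± 0.24, adjusted p = 0.0141), and 3 of the 7 single omissions ended that call (adjusted p up to 0.0766). Srebf2 (log2 0.68), the SREBP brake Insig1 (1.17), the LXRα gene Nr1h3 (1.30) and Thrsp (3.79, from 0.341 to 4.74 CPM) rose, and the E-box factor gene Usf2 fell (-0.89). The 3 libraries that stood apart lay below the rest of their group for Thrsp, at 0.939 CPM against 5.91 to 6.18 in control cells and 0.707 to 1.55 against 4.47 to 5.57 in Pcbp2βKO cells, and so they did for Srebf1 and Insig1 and, among the genes below, Pgd and G6pdx. Their part in the spread of these genes was not tested. Mlxipl, which codes for the glucose-sensing factor ChREBP, did not pass in control cells (log2 -0.16, adjusted p = 0.828). It was at a mean of 172.3 CPM in Pcbp2βKO and 78.9 CPM in control cells at 16.7 mM, without overlap and without passing the test (log2 1.13, adjusted p = 0.115).

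Among 14 genes that supply acetyl-CoA and NADPH, 4 rose in control cells and 1 fell (median log2 0.14). Idh1, the cytosolic NADP-dependent isocitrate dehydrogenase, rose by 1.09 ± 0.15 (adjusted p = 0.000466), and the pentose phosphate dehydrogenases Pgd (0.97) and G6pdx (0.74) and cytosolic malate dehydrogenase Mdh1 (0.75) rose as well. Idh2, its mitochondrial counterpart, fell (log2 -1.04). None of 5 other genes tied to malonyl-CoA (Acacb, Mlycd, Prkaa1, Prkaa2 and Stk11) was called in either genotype (median log2 -0.021 in control cells).

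Of 9 other elongation genes tested (median log2 0.37), 4 rose in control cells: the elongases Elovl1 (0.72) and Elovl2 (0.69), the ketoacyl-CoA reductase Hsd17b12 (0.87) and the dehydratase Hacd1 (1.27). Of 7 other desaturases and their electron carriers (median log2 0.078), Cyb5b, which codes for an outer mitochondrial cytochrome b5, rose (0.69) and Scd3 fell (-1.40). Of 21 genes of fatty acid activation and glycerolipid synthesis (median log2 -0.28), Acsl3 (-0.74) and Agpat2 (-0.92) fell and 0 rose. Of the 19 calls, 7 held in every single omission (Idh1, Idh2, G6pdx, Insig1, Thrsp, Agpat2 and Hacd1).

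For the knockout, 3 of the 73 genes were lower at 2.8 mM and 0 higher, beside 1.78% and 0.255% of all genes. They were the polyunsaturated fatty acid elongase Elovl2 (log2 -0.71 ± 0.13, adjusted p = 0.00537) and the acyl-CoA synthetases Acsl5 (-0.60, adjusted p = 0.0132) and Acsl6 (-1.48, adjusted p = 0.0138). At 16.7 mM, 3 others were lower and 0 higher, beside 1.42% and 0.29% of all genes: Hacd1 (-1.13, adjusted p = 0.0332), Acsl4 (-1.02, adjusted p = 0.0415) and the lipid droplet coat gene Plin3 (-1.25, adjusted p = 0.0305). Each of these 6 calls was lost in at least 1 single omission. At 2.8 mM the calls of Elovl2 and Acsl6 were each lost in 1 of 8 omissions and that of Acsl5 in 2 of 8. At 16.7 mM those of Hacd1 and Acsl4 were each lost in 7 of 9 and that of Plin3 in 6 of 9. Without control replicate 3 at 2.8 mM, Elovl2 was at -0.58 (adjusted p = 0.0657) and Acsl6 at an adjusted p of 0.0783, and without control replicate 1 Acsl5 was at -0.50 (adjusted p = 0.114). At 16.7 mM the adjusted p reached 0.204 for Hacd1 and 0.181 for Acsl4 without control replicate 3, and 0.0870 for Plin3 without control replicate 1. Without the 3 libraries that stood apart, 1 gene was called at 16.7 mM. No interaction was called among the 73.

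For each member, the genes with the most similar pattern over the 17 samples were found among genes averaging at least 5 CPM, by the root mean square difference of centred log2 CPM. Those of Scd2 included Nr1h3 (0.33) and Fasn (0.36), against an SD of 0.91 of Scd2 itself. For Fasn they were Slc39a13 (0.16), Stk35 and Ap3b2, and for Acly Wdr6 (0.16), Ube3c and Gusb. For Elovl6 they were Gm10451 (0.16), Slc18b1 and Fntb, and for Acaca Kbtbd4 (0.13), Ubr2 and Tubgcp6. The gene nearest to Scd1 was Fads2, though only at 1.00 against an SD of 2.25 (log2) for Scd1, whose next genes were Akap6 and Gucy2c. Scd1 averaged under 5 CPM, so it could not itself be listed as near to Fads2 or another gene. Fads2 itself was nearest to Gucy2c (0.54), Kcnh1 and Gm379. Fads1 was nearest to Atp6v0a1 (0.15), F11r and Slc7a8, Elovl5 to Kbtbd2 (0.09), Nudt21 and Zfp24, and Me1 to Kbtbd7 (0.23), Srsf10 and BC024063. These are descriptions, and the points share the same libraries and scaling.

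In the genome (GRCm39), Scd1, Scd2, Fads1 and Fads2 lie on chromosome 19. Scd1 spans 44382894 to 44399154 (minus strand), Scd2 44281613 to 44295303 (plus strand), Fads2 10038130 to 10079203 (minus strand) and Fads1 10160167 to 10174241 (plus strand). Acly (100367165 to 100440756, minus strand), Acaca (84020476 to 84292477, plus strand) and Fasn (120696672 to 120715995, minus strand) lie on chromosome 11. Elovl5 (77818113 to 77891802, plus strand) and Me1 (86462646 to 86578104, minus strand) lie on chromosome 9, and Elovl6 (129326004 to 129432144, plus strand) on chromosome 3. Exons of Me1 share 2146 bases with Rwdd2a on the opposite strand, those of Fads1 516 and 368 bases with 2 non-coding genes, and those of Acly 211 bases with Odad4. Scd2 shares 61 bases with Mir5114 on its own strand. The sources used here do not say that counting used strand, so reads from these stretches cannot be assigned to one gene.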

How the data were processed

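The authors deposited, for each of 17 samples, Kallisto estimated counts and TPM for 142376 transcripts of a GRCm39 reference (mm39 per the labels), from paired-end reads of an ultra-low-input library kit. Versions and the levels of the batch term in their edgeR model are not given in the sources used here. Estimated counts were summed per gene over the symbol and gene ID in the transcript name and rounded to whole numbers. Genes were filtered with filterByExpr, scaled by TMM (factors 0.752 to 1.29) and fitted over all 4 groups with edgeR 4.0.16 (quasi-likelihood test, R 4.3.3), with no covariate since the batch is unknown. Adjusted p are Benjamini-Hochberg over 22784 genes. A gene was called at adjusted p under 0.05 and a fold over 1.5. Log2 CPM used a prior count of 2. Levels between genes were compared on the deposited TPM, summed per gene.

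Alternatives were RLE size factors, total counts, leaving out Ins1 and Ins2, DESeq2 1.42.0, limma 3.58.1 on log2(TPM + 0.1) and log2(TPM + 1), no filter, length-scaled counts, only the samples of a contrast, the replicate number as a block, leaving out the 3 libraries that stood apart, and leaving out each sample. Shares were compared by exact two-sided permutation tests (scipy 1.17.1) with Benjamini-Hochberg adjustment. The script was tested on simulated counts.

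Replicate numbers were checked as pairs by the correlation of deviations from group means. All 3 were over 0.1 for glucose in control cells (0.123 to 0.258). Values between the genotypes reached 0.354, and samples of unlike number were not compared, so this check cannot show that the numbers pair samples. The reported fit and the permutation tests do not use the numbers as pairs, and the fit with the block is an alternative. In the other contrasts at least 1 pair was at or under 0.1. The members and the gene lists were chosen with earlier results of these data known. The share of Acly-203 among the 3 long Acly transcripts and its alternatives were chosen after its values were seen. Named genes were the 10 members, the list genes called for glucose in control cells or for the knockout, Srebf1, Mlxipl, Pcbp2, and the 3 genes nearest in pattern to each member. Fads3 and Elovl3 did not pass the filter, and Nnt, listed under 2 gene IDs, was left out. Locations, exons and start windows are from the GRCm39 Ensembl annotation, which held all 51 member transcripts. Errors given here are of the spread between samples and do not cover the assignment of reads to similar transcripts. The start window of 1 member and 1 gene near in pattern are not reported here.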

Additional observations from a re-analysis of the deposited data

Results flagged for a closer look

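Of 51 groups of 4 or 5 samples examined with Dixon's criterion, 3 held a sample far from the others. That is near the share of about 1 in 20 that chance alone gives. Replicate 5 of Pcbp2βKO cells at 2.8 mM glucose stood apart for Acly on overlapping measures of the same transcript. Acly-203 made up 35.55% of the gene's TPM there, and 38.71% of the TPM of the 3 long transcripts. The other 4 samples of that group lay at 49.74% to 51.62% for the second measure. Replicate 3 of Pcbp2βKO cells at 16.7 mM stood apart for Acaca, with 29.21% of the TPM in Acaca-201, in a group that reached 49.12%.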

How the results depend on the processing

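Over 103 results with a direction, 735 of the values under other settings kept their direction and their side of the threshold, 62 lost a call, 4 gained one and 63 turned direction, and with single samples left out these numbers were 859, 65, 3 and 55. The count of called members changed by more than 1.5 times on log2(TPM + 1) for glucose in control cells (3) and on total counts for the knockout at 2.8 mM (0, and 0 to 1 over single omissions). Such counts do not show direction or which gene was called. On log2(TPM + 0.1) the 6 calls for glucose in Pcbp2βKO cells were 2 higher and 4 lower, in place of 6 higher. The 1 call for the knockout at 2.8 mM was then Scd2, higher, in place of Elovl6, lower. The cause of these changes was not tested.

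On the TPM scales, where the median of all genes is lower at 16.7 mM, the signs turned for log2(TPM + 0.1) and log2(TPM + 1) as follows. For glucose in control cells they were -0.30 and -0.22 for Acaca, -0.40 and -0.31 for Elovl6, -0.56 and -0.52 for Fads1, -0.41 and -0.37 for Me1, -0.15 and -0.15 for Cyb5b, -0.11 and -0.10 for Elovl1, -0.086 and -0.075 for Elovl2, -0.12 and -0.12 for G6pdx, -0.058 and -0.057 for Mdh1, and -0.14 and -0.13 for Srebf2. For glucose in Pcbp2βKO cells they were -0.77 and -0.60 for Acaca, -0.99 and -0.97 for Elovl5, -0.64 and -0.59 for Fads1, and -0.70 and -0.64 for Me1. For the interaction they were -0.20 and -0.20 for Elovl5, -0.083 and -0.069 for Fads1, -0.13 and -0.10 for Fasn, and -0.093 for Fads2 on the first scale. On total counts they were -0.15 for Fads1 in control cells, -0.15, -0.44, -0.057 and -0.14 for Acaca, Elovl5, Fads1 and Me1 in Pcbp2βKO cells, and -0.071 and -0.10 for the interaction of Elovl5 and Fads2.

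Other turns were of values near 0. Elovl5 in control cells was at 0.017 on length-scaled counts and 0.0035 with only the samples of the contrast, and in Pcbp2βKO cells at -0.014 without Ins1 and Ins2 and -0.12 without the 3 libraries that stood apart. The Fads2 interaction was -0.013 with RLE factors, -0.022 without Ins1 and Ins2, -0.017 with DESeq2 and -0.27 with the replicate block. Without those 3 libraries Scd1 at 16.7 mM was 0.40 and the Me1 interaction 0.016. The block changed no other call of a member, and its counts of called members were 5, 6, 1, 0 and 0.

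Main-isoform shares turned, with estimated counts in place of TPM, to 1.75 (Acaca, glucose in control cells), -5.82, -1.13 and -0.251 points (Acaca, Acly and Me1, glucose in Pcbp2βKO cells), 7.89 and 0.197 (Acaca and Fasn, knockout at 2.8 mM), and 0.320 and 2.13 (Acaca and Elovl6, knockout at 16.7 mM). Without the 3 libraries they turned to 1.23 and -3.16 for Acaca with glucose in control and Pcbp2βKO cells and to 5.09 for Elovl6 at 16.7 mM.

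Over single omissions Elovl5 ranged from -0.081 to 0.099 (glucose, control) and -0.023 to 0.11 (glucose, Pcbp2βKO), Fasn at 2.8 mM from -0.046 to 0.18, and Scd1 at 16.7 mM from -0.39 to 0.25. Interactions ranged from -0.23 to 0.027 (Acaca), -0.057 to 0.36 (Fasn), -0.070 to 0.11 (Elovl5), -0.27 to 0.44 (Fads2) and -0.21 to 0.11 (Me1). Isoform shares ranged, in points, for glucose in control cells from -6.76 to 2.49 (Acaca) and -2.58 to 7.51 (Me1). For glucose in Pcbp2βKO cells they ranged from -1.14 to 1.91 (Acly), -2.15 to 3.86 (Acaca), -2.31 to 5.44 (Elovl6) and -1.58 to 4.46 (Me1). For the knockout they ranged from -6.72 to 2.99 (Me1, 2.8 mM), -4.76 to 1.17 (Acaca, 16.7 mM) and -2.38 to 3.16 (Elovl6, 16.7 mM). The share of Acly-203 among the long Acly transcripts ranged from -13.4 to -8.93 points for the knockout at 2.8 mM and from -3.98 to -0.583 for glucose in Pcbp2βKO cells.

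Genome-wide calls for glucose in control cells numbered 3153 (1629 higher), and 4837 (782 higher) on total counts, 8902 (442 higher) on log2(TPM + 0.1), 6975 (250 higher) on log2(TPM + 1) and 4775 (2331 higher) with the replicate block. In Pcbp2βKO cells they numbered 5431 (3056 higher), and 7851 (1482 higher), 12449 (656 higher) and 8831 (345 higher) on the same 3 scales. For the knockout they were 464 at 2.8 mM, with 283 on log2(TPM + 1) and 835 by DESeq2, and 389 at 16.7 mM, with 190 and 726. The interaction gave 1, with 34 by DESeq2 and 13 with the block. Depth limits the values of Scd1 at 2.8 mM, at 0 to 42 estimated counts.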
